A study of Sus scrofa with 4 samples.

Results

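The genes described here are 10 components of the pathway through which leptin and the interleukin-6 family of cytokines reach the nucleus. They are the receptor chains IL6ST and IL6R, the Janus kinases JAK1, JAK2 and TYK2, the transcription factors STAT3, STAT5A, STAT5B and STAT6, and the phosphatase PTPN11. They were taken by symbol from the deposited expression table, in which each symbol matched 1 of 22309 rows. All 10 passed the filter on low counts, which left 13937 genes tested. Their messenger RNA was measured by poly(A)-enriched RNA sequencing in ovaries of the pig (Sus scrofa), 4 samples in all, each from diestrus. There were 2 wild type (WT) samples and 2 leptin overexpression samples, with no other treatment named in the labels. The series design traces the transgenic sows to a single cloned line: re-cloned boars of that line were crossed with Duroc/Landrace/Yorkshire sows, and carriers were selected among the grandchildren. The ages of the sows, the breeding of the WT sows and the promoter that drives the leptin transgene were not given in the sources used here.

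Cytokine receptors of this class have no kinase of their own. Binding of the cytokine brings receptor chains together, Janus kinases held on their inner ends phosphorylate the receptor and each other, and STAT proteins dock there, are phosphorylated, pair and enter the nucleus. IL6ST encodes gp130, the signal-transducing chain shared by interleukin-6, interleukin-11, leukaemia inhibitory factor, oncostatin M and related cytokines. The leptin receptor is built much like gp130 and signals mainly through JAK2 and STAT3, with PTPN11 linking it to the MAP kinase route. Activation is by phosphorylation of existing protein, which RNA levels do not measure.

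Between the genotypes, 0 of the 10 genes passed an adjusted p of 0.05 (edgeR's quasi-likelihood test, Benjamini-Hochberg over all tested genes), where 0.0287% of all tested genes passed; DESeq2 also called 0 of them, beside 2.02% of the genes it tested. The largest differences were in the 2 receptor chains and had opposite signs: IL6ST had higher values in leptin overexpression, and IL6R had lower ones. Both had an unadjusted edgeR p under 0.05, which 4.04% of tested genes had in the higher direction and 5.32% in the lower. The kinases, STAT genes and PTPN11 had log2 fold changes (leptin overexpression minus WT) between -0.48 and 0.64. The median over the 10 genes was 0.13, beside -0.012 over all tested genes. In 8 of the 10 genes the larger of the gaps between the libraries of 1 group exceeded the difference between the groups, as it did in 73.9% of tested genes.

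The libraries held 16493113 to 16797511 counts each. The overexpressed gene LEP had 0 and 3 counts in WT versus 55 and 124 in leptin overexpression, in the direction of the labels. Even so, LEP did not pass the edgeR test (log2 fold change 6.18, SE 1.19, adjusted p = 0.198). DESeq2 did call LEP (log2 fold change 6.30, adjusted p = 4.03e-05). A gene that did not pass the edgeR test is therefore not shown to be unchanged. Ovarian markers were present in every library, with STAR, which delivers cholesterol for steroid synthesis, at 7022 to 23771 CPM (a count scaled to a common library size, here with TMM factors). Whether samples of the same genotype came from separate sows is not stated in the labels, so the spread behind each p-value may be technical. In bulk tissue, fewer cells of a type and less RNA per cell cannot be told apart. Scaling mattered for direction. TMM factors ran from 1.34 in WT replicate 1 to 0.809 in leptin overexpression replicate 2, and with library totals alone the median log2 fold change of all tested genes was -0.43. On that scale 8 of the 10 genes were below 0. With TMM factors 4 were, and 50.7% of all tested genes were below 0. The genes that changed sign were STAT3, STAT5A, STAT5B and PTPN11.

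IL6ST (ENSSSCG00000016916) was at 95.4 CPM in WT replicate 1 and 190.4 in WT replicate 2, and at 232 and 769 CPM in leptin overexpression replicates 1 and 2. The groups did not overlap, and leptin overexpression replicate 2 stood far above the other 3 libraries. By CPM, 22.2% of tested genes had all leptin overexpression values above all WT values. The log2 fold change of IL6ST was 1.81 (SE 0.64, edgeR test, adjusted p = 0.437), and DESeq2 gave 1.81 with adjusted p = 0.0603. Leaving out leptin overexpression replicate 2 reduced the log2 fold change to 0.71 (SE 0.57). Without WT replicate 2 it was 2.35 (edgeR test, adjusted p = 0.013), a fit in which the single WT library is assumed to vary like the leptin overexpression libraries.

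**Figure D1:**
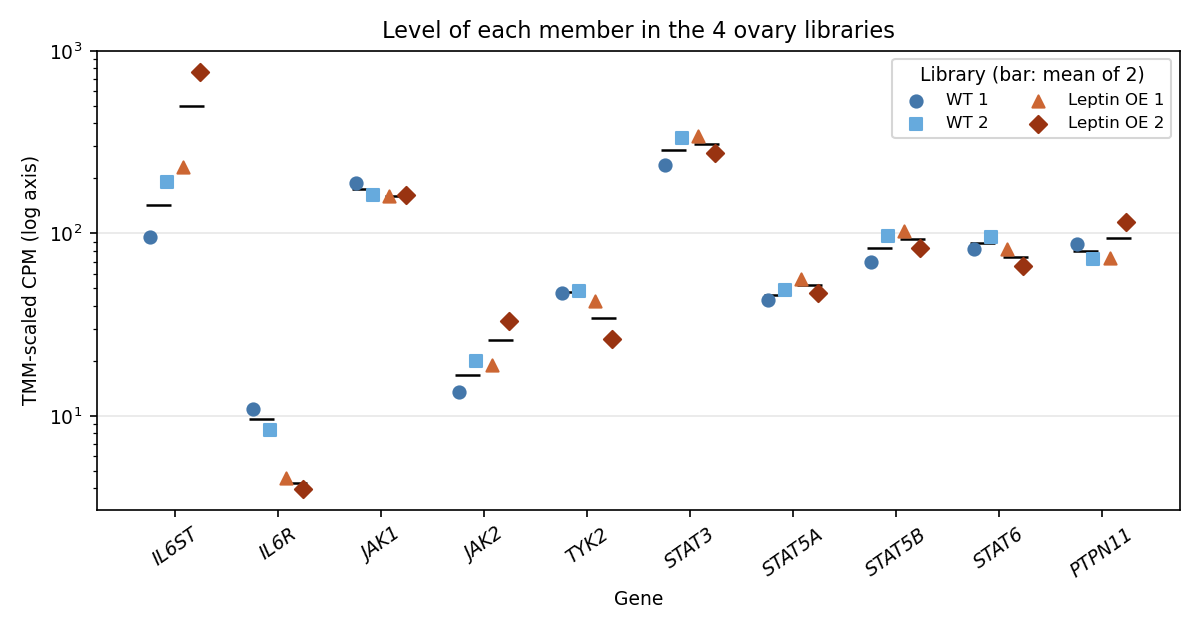
Points are TMM-scaled CPM (log axis) of each of the 10 genes in the 4 libraries, and bars are the means of the 2 libraries of a group. IL6ST climbs from 95.4 to 769 CPM across the libraries and IL6R runs from 10.9 down to 3.96, while the points of the other genes lie closer together.

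IL6R (ENSSSCG00000027628), the chain that binds interleukin-6 and presents it to gp130, had the lowest FPKM of the 10 genes in every library. It was at 10.9 and 8.35 CPM in WT versus 4.57 and 3.96 CPM in leptin overexpression, from 240 and 140 counts versus 70 and 53. The groups did not overlap, the pattern of 22.9% of tested genes in the lower direction. The log2 fold change was -1.17 (SE 0.50, edgeR test, adjusted p = 0.524). It stayed below 0 in each of the 15 alternative fits, from -1.62 to -0.91, with adjusted p from 0.213 to 1. Interleukin-6 receptor is carried by leukocytes among other cells, and most leukocyte markers were also lower in value. Of the tested macrophage markers 5 of 6 had lower values, with a summed level of 237 and 195 CPM in WT versus 149 and 137 in leptin overexpression. Of the tested lymphocyte markers 6 of 8 had lower values. Over all 10 lymphocyte markers, tested or not, the sums were 69.2 and 127 versus 60.5 and 66 CPM. JCHAIN gave 19 and 39.3 versus 4.24 and 6.72 CPM of these sums. CD247, at 10.4 and 25.1 versus 24.4 and 18 CPM, was lowest in WT replicate 1. CD3G was at 0 in WT replicate 2 and both leptin overexpression libraries. Of 4 neutrophil markers 2 matched a row, and their sums were 14.4 and 5.19 versus 1.57 and 0.598 CPM. Each WT sum rested mainly on a different gene. CSF3R was at 14.4 and 1.01 CPM in WT versus 0.522 and 0.0747 in leptin overexpression. S100A8 was at 0 and 4.18 versus 1.04 and 0.523 CPM, so WT replicate 1 was its lowest library. Markers of other tissues were lower too. All 5 oviduct epithelium markers had lower values, each with an unadjusted edgeR p under 0.05, and their sums were 444 and 230 CPM in WT versus 28.7 and 20.5 in leptin overexpression; OVGP1, the oviduct glycoprotein, was at 316 and 183 versus 0.0653 and 1.2 CPM, FOXJ1 and SPAG6 were at 0 in leptin overexpression replicate 1, and TEKT1 was at 0 in replicate 2. All 5 smooth muscle markers had lower values, with sums of 1110 and 1104 versus 444.5 and 696 CPM. All 6 endothelium and all 6 oocyte markers had log2 fold changes below 0, though their sums overlapped between the groups. These were 658 and 1222 versus 814 and 375 CPM for endothelium, and 141.5 and 23.8 versus 21.5 and 24.3 for oocyte. Granulosa markers were 4 above 0 and 4 below, luteal markers 4 above and 1 below, and theca markers 2 above and 3 below. The part of any of these cells in the IL6R values was not tested.

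Ratios between genes of 1 library do not depend on how libraries are scaled. By FPKM, which also divides by transcript length, there was 6.03 and 16.6 times as much IL6ST as IL6R in WT versus 37 and 141 times as much in leptin overexpression. The log2 of their count ratio differed by 2.81 between the group means, more than the gap of 1.38 within WT and of 1.94 within leptin overexpression. An exact permutation test of 2 versus 2 libraries cannot give a two-sided p below 0.333, so no ratio could pass a threshold. IL6ST divided by STAT3 was 0.27 and 0.384 in WT versus 0.453 and 1.87 in leptin overexpression, so IL6ST exceeded STAT3 in leptin overexpression replicate 2 alone. IL6ST was higher in leptin overexpression relative to each of the other 9 genes with no overlap between the groups, as it was relative to 71.4% of tested genes with a count in every library. For 5 of the 9 the gap within leptin overexpression was larger than the difference between the groups.

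**Figure D2:**
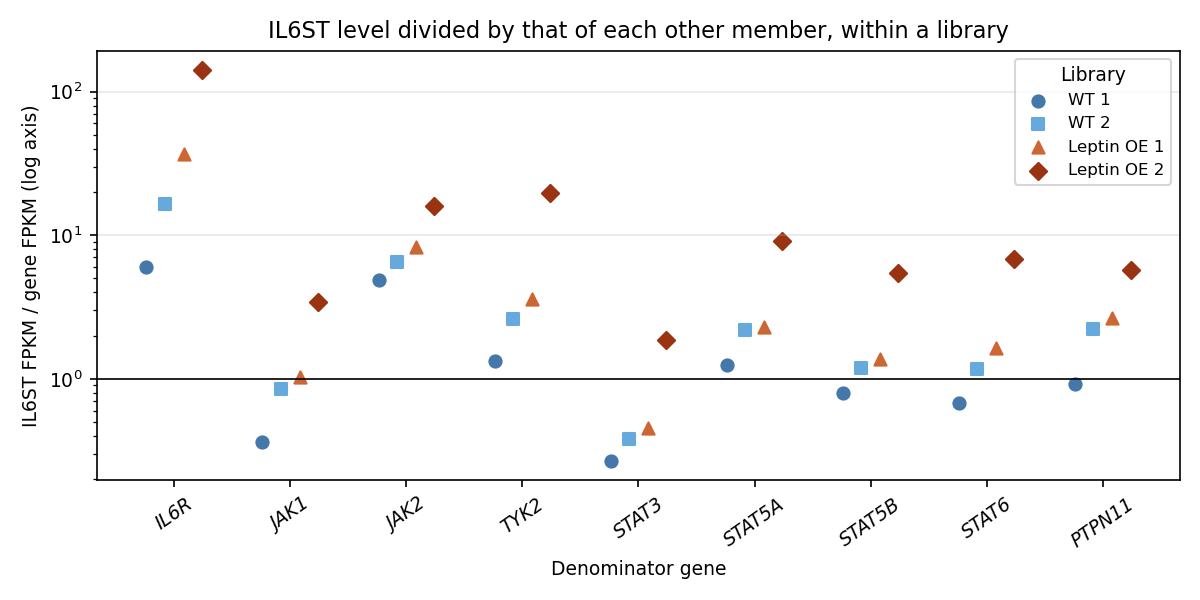
Each point is the FPKM of IL6ST divided by that of the gene on the horizontal axis in the same library (log axis, line at 1). Leptin overexpression libraries lie above both WT libraries for all 9 genes, and leptin overexpression replicate 2 lies apart, at 141 for IL6R and 1.87 for STAT3.

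None of the other chains that pair with gp130 passed the test, and they differed in direction. IL11RA, the binding chain for interleukin-11, was at 21.3 and 16.2 CPM in WT versus 9.66 and 8.22 under leptin overexpression (log2 fold change -1.07, SE 0.42, edgeR test, adjusted p = 0.504). LIFR, the partner chain for leukaemia inhibitory factor, was at 27.6 and 25.2 versus 28.5 and 41.2 CPM, and OSMR, that for oncostatin M, at 25.9 and 41.5 versus 39.2 and 34.7. IL27RA, the chain for interleukin-27, was at 67.3 and 86.2 versus 83.5 and 109 CPM. Per length, IL6ST amounted to 0.263 and 0.479 of the summed FPKM of 6 partner chains in WT (IL6R, IL11RA, LIFR, OSMR, CNTFR and IL27RA) and to 0.641 and 1.78 of it in leptin overexpression. IL27RA had the highest FPKM of these chains in both WT libraries, 34.1 and 32.6 beside 17.9 and 26.8 for IL6ST. In leptin overexpression IL6ST was at 30 and 87.3 FPKM beside 29.4 and 34.2 for IL27RA, nearly equal in replicate 1 and far apart in replicate 2.

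Of the list of gp130 cytokines and chains, 11 of 15 genes were tested and 0 passed in either direction; 6 had values above 0 and 5 below, with a median log2 fold change of 0.135. IL6 was at 0.544 and 1.25 CPM in WT versus 2.81 and 0.896 in leptin overexpression, and LIF at 28 and 25.1 versus 21.6 and 28.7. The groups overlapped for both. CSF3R, the gp130-related receptor of neutrophils, was at 14.4 and 1.01 CPM in WT versus 0.522 and 0.0747 in leptin overexpression, so that WT replicate 1 stood apart. These 3 genes were named after their values were seen. An unadjusted edgeR p under 0.05 was found for 2 genes of this list, both lower, for 3 of the other receptors, all lower, for 1 gene downstream of PTPN11, lower, and for 1 inhibitor, higher. Over the joined pathway lists this made 1 higher and 6 lower of 78 tested genes. Of all tested genes 4.04% were higher and 5.32% lower at that threshold. DESeq2 called 2 genes of the lists outside the 10, CSF3R and IL2RG, both lower.

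JAK1 (ENSSSCG00000003809), which serves gp130 and the interferon receptors, was at 188 and 161 CPM in WT versus 159.6 and 162 in leptin overexpression. The last 3 libraries were nearly equal, and only WT replicate 1 was higher. Its log2 fold change was -0.12 (SE 0.38, edgeR test, adjusted p = 0.923). JAK2 (ENSSSCG00000005215), the kinase that LEPR holds, was at 13.5 and 19.9 CPM in WT versus 18.9 and 33 in leptin overexpression. WT replicate 2 exceeded leptin overexpression replicate 1, so the groups overlapped (log2 fold change 0.64, SE 0.44, edgeR test, adjusted p = 0.632). TYK2 (ENSSSCG00000013648), which serves receptors of type I interferons and interleukin-12, was at 47.2 and 48.2 CPM in WT versus 42.3 and 26.3 in leptin overexpression. The groups did not overlap, and leptin overexpression replicate 2 was much lower than the other 3 libraries (log2 fold change -0.48, SE 0.38, edgeR test, adjusted p = 0.675), and without that library the log2 fold change was -0.16.

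By FPKM the kinases had the same order in 3 of the libraries. JAK1 led at 49.3 and 31.5 in WT versus 28.9 and 25.6 in leptin overexpression. TYK2 followed at 13.5 and 10.2 versus 8.39 and 4.47, and JAK2 was at 3.66 and 4.08 versus 3.62 and 5.44. In leptin overexpression replicate 2 JAK2 exceeded TYK2. JAK3, the leukocyte kinase that is not one of the 10, lay between TYK2 and JAK2 except in that library, at 9.5 and 8.04 versus 4.8 and 2.89 FPKM. JAK2 made up 4.82% and 7.58% of the summed FPKM of these 4 kinases in WT versus 7.91% and 14.2% in leptin overexpression. WT replicate 2 and leptin overexpression replicate 1 were nearly the same in this share.

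STAT3 (ENSSSCG00000017403), the factor that gp130 and the leptin receptor activate most directly, was the most abundant of the 10 genes by FPKM in 3 libraries. It was at 237 and 334 CPM in WT versus 339 and 275 in leptin overexpression. Both leptin overexpression values were above WT replicate 1, and WT replicate 2 lay between them (log2 fold change 0.11, SE 0.43, edgeR test, adjusted p = 0.94). STAT6 (ENSSSCG00000040435), which answers interleukin-4 and interleukin-13, was at 82.3 and 95.6 CPM in WT versus 82.3 and 66 in leptin overexpression, with WT replicate 1 and leptin overexpression replicate 1 equal to that precision (log2 fold change -0.26, SE 0.36, edgeR test, adjusted p = 0.813).

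STAT5A (ENSSSCG00000017402) and STAT5B (ENSSSCG00000017406), which serve prolactin and growth hormone, lie next to STAT3 in RefSeq's gene order for Sscrofa11.1. STAT5A was at 43 and 49.1 CPM in WT versus 56.2 and 47.3 under leptin overexpression (log2 fold change 0.17, SE 0.35, edgeR test, adjusted p = 0.874). STAT5B was at 69.7 and 97 CPM in WT versus 102.5 and 83.1 under leptin overexpression (log2 fold change 0.16, SE 0.37, edgeR test, adjusted p = 0.894). In both genes the groups overlapped. They were also the only 2 of the 10 with fractional counts, as 18.7% of all rows had. To the 2 decimals deposited, their counts summed to a whole number in every library, 2485 and 2448 in WT versus 2431 and 1746 in leptin overexpression. Such similar genes share reads, so the level of each alone is uncertain; the estimated share of STAT5A in the sum was 38.1% and 33.6% in WT versus 35.4% and 36.3% in leptin overexpression.

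Of the ratios between STAT genes, that of STAT3 to STAT5B varied least. STAT3 was 2.95 and 3.12 times STAT5B by FPKM in WT versus 3.02 and 2.92 times in leptin overexpression. By counts this ratio was 3.39 and 3.44 versus 3.31 and 3.31, without overlap between the groups and with a log2 difference of -0.047, beside gaps of 0.02 and 0.001 within the groups. The ratios to STAT6 differed more. STAT3 was 2.51 and 3.04 times STAT6 in WT versus 3.62 and 3.63 times in leptin overexpression. STAT5A divided by STAT6 was 0.546 and 0.534 in WT versus 0.71 and 0.745 in leptin overexpression. The groups did not overlap in these last 2 ratios, and the log2 count ratios differed by 0.39 and 0.43, more than the gaps within a group, which were at most 0.28. STAT6 was thus lower relative to the other 3 STAT members, by amounts that its own test did not call. Over all 45 pairs of the 10 genes, 26 count ratios did not overlap between the groups, and in 19 the difference exceeded both gaps within a group. Of all pairs of tested genes with a count in every library, 43.7% did not overlap and 26.6% also differed beyond both gaps. IL6ST was in 9 of the 26 pairs and IL6R in 8 others; the pairs share genes and are not independent.

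**Figure D3:**
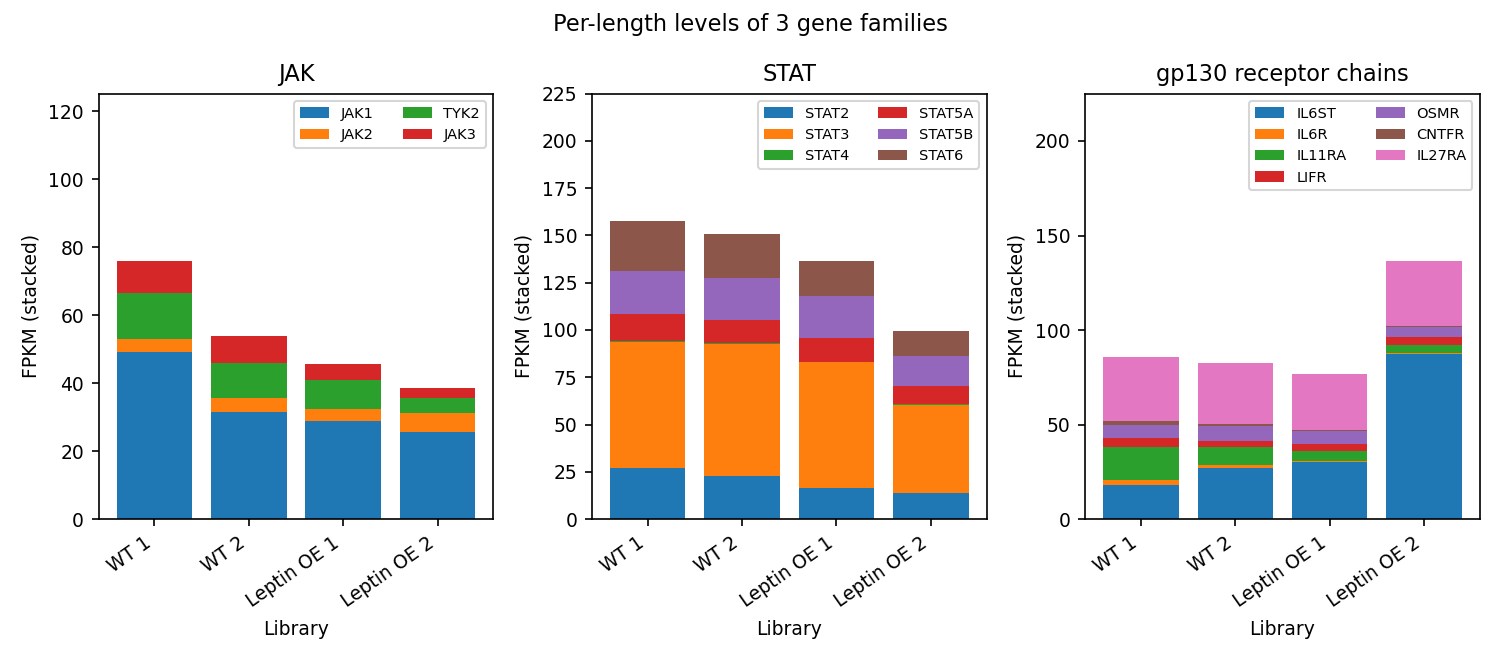
Stacked bars give FPKM in each library for 4 JAK genes, 6 STAT genes and 7 receptor chains that include gp130 (IL6ST). The summed JAK level runs from 75.9 in WT replicate 1 to 38.4 in leptin overexpression replicate 2 and the summed STAT level from 157 to 99.2, while the receptor chains sum to 136 in leptin overexpression replicate 2, where IL6ST takes most of the bar.

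Among the JAK and STAT genes outside the 10, STAT2, a factor of type I interferon signalling, was at 87.8 and 103 CPM in WT versus 78.9 and 77.9 in leptin overexpression, and JAK3 at 33.2 and 37.6 versus 24.2 and 16.7. Neither passed the test (edgeR test, adjusted p = 0.788 and 0.564). STAT4, which answers interleukin-12, was at 2.27 and 1.67 versus 1.11 and 1.87 CPM. The median log2 fold change of these 3 genes was -0.41.

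PTPN11 (ENSSSCG00000030289) encodes SHP2, a phosphatase that docks on gp130 and the leptin receptor and carries their signal towards RAS and the MAP kinases. It was at 87.65 and 72.4 CPM in WT versus 73.6 and 115 in leptin overexpression. Leptin overexpression replicate 2 was the highest and WT replicate 2 the lowest, and the other leptin overexpression library lay inside the WT range (log2 fold change 0.23, SE 0.39, edgeR test, adjusted p = 0.847). Its sign depended on that library: without it the log2 fold change was -0.10. All 15 genes listed downstream of PTPN11 were tested and 0 passed in either direction, with 8 values above 0, 7 below and a median of 0.085. MAPK3, a kinase at the end of that route, was at 169 and 189 versus 233 and 149 CPM. SHC1 and GRB2, adaptors at its start, were at 120.5 and 159 versus 139 and 88.4 CPM and at 87.9 and 88.7 versus 95.6 and 97.3.

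**Figure D4:**
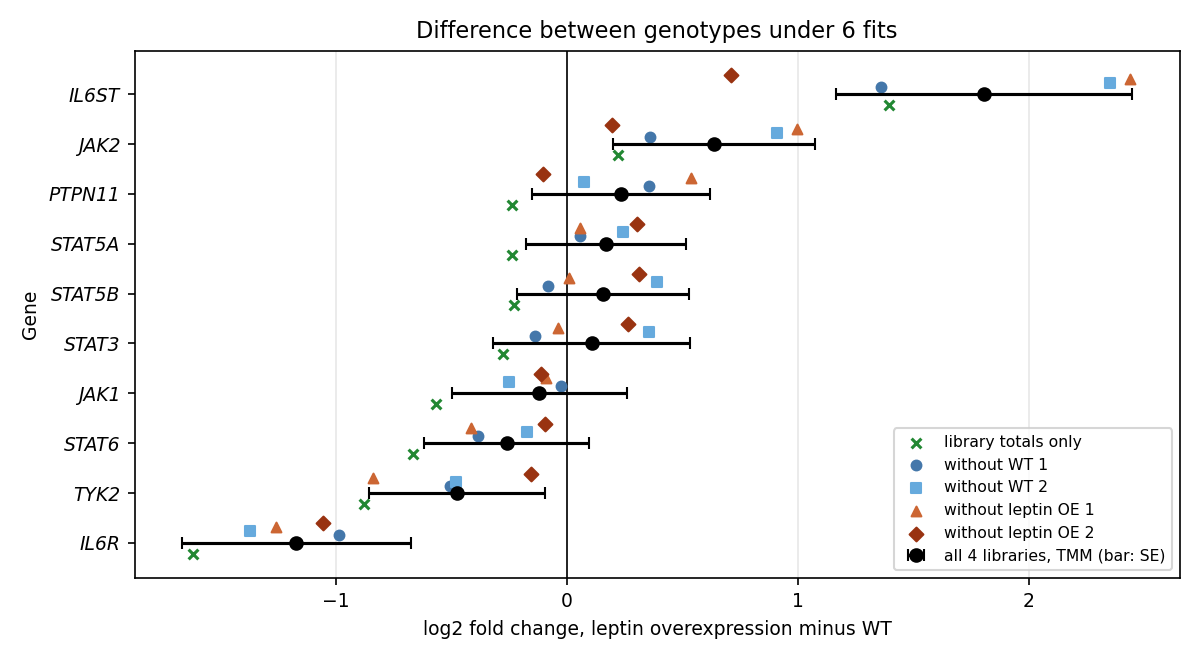
Log2 fold changes of the 10 genes with all 4 libraries and TMM factors (black, bars are SE), with library totals only, and with each library left out. IL6ST stays above 0 and IL6R below 0 in all 6 fits, while STAT3, STAT5B and PTPN11 lie on both sides of 0 among the fits with a library left out.

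LEPR, which binds leptin itself, measured 2.63 and 26.5 CPM in WT versus 15.5 and 21.5 in leptin overexpression, so WT replicate 1 stood apart; its log2 fold change of 0.35 became -0.54 without that library and 2.78 without WT replicate 2 (edgeR test, adjusted p = 0.0163). Of 18 other receptors that use Janus kinases, LEPR among them, 14 were tested and 0 passed, with 8 above 0, 6 below and a median of 0.066. The most abundant, IL13RA1, IFNAR1 and IFNGR2, which serve interleukin-13 and the interferons, were at 139 and 172 versus 165 and 157 CPM, at 128 and 106 versus 109.7 and 137, and at 81.7 and 76.5 versus 61.6 and 74.6. A group of 3 leukocyte receptor chains, chosen after their values were seen, had the lowest unadjusted p of that list. IL2RG was at 13.5 and 10 CPM in WT versus 2.94 and 2.47 in leptin overexpression, CSF2RB at 21 and 23.6 versus 8.62 and 6.42, and IL10RA at 38.5 and 29.8 versus 12.1 and 15.7. Their adjusted p by the edgeR test was 0.231, 0.273 and 0.347. The summed leukocyte markers given above for IL6R were also lower in both leptin overexpression libraries. For lymphocytes, WT replicate 1 and leptin overexpression replicate 2 had close sums, 69.2 and 66 CPM. JCHAIN alone, at 19 and 6.72 CPM in these 2 libraries, differed by more than the sums did. Single markers differed in direction. Of the tested macrophage markers 5 of 6 and of the lymphocyte markers 6 of 8 had lower values. CD79A was at 12.2 and 14 CPM in WT versus 12.6 and 17.9, and CD14 at 12.1 and 19.9 versus 23.9 and 18.1. The part of leukocytes in the values of these receptor chains was not tested.

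Inhibitors of the pathway were tested in 17 of 18 cases and 0 passed, with 9 above 0, 8 below and a median of 0.23. SOCS3, the feedback inhibitor that STAT3 induces and that blocks signalling by gp130 and LEPR, was at 55.7 and 298 CPM in WT versus 480 and 131 under leptin overexpression (log2 fold change 0.79, SE 0.90, edgeR test, adjusted p = 0.773). The high libraries were WT replicate 2 and leptin overexpression replicate 1, one of each genotype, and SOCS3 passed the test only without WT replicate 2. SH2B3 and PIAS2, which restrain JAK2 and STAT proteins, were at 60.7 and 89.8 versus 75.9 and 52.5 CPM and at 47.2 and 66 versus 59 and 73.5. SOCS6, another member of the SOCS family, was the only inhibitor with an unadjusted p under 0.05, at 19.7 and 19 versus 27.6 and 50 CPM (edgeR test, adjusted p = 0.519).

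Among 24 textbook STAT target genes 20 were tested and 0 passed, with 11 above 0, 9 below and a median of 0.16. TIMP1, an inhibitor of matrix proteases, was at 4310 and 9676 CPM in WT versus 8480 and 8105 in leptin overexpression. A2M, a protease trap of the acute phase, was at 460.4 and 1755 versus 1836 and 825, and MCL1, which opposes apoptosis, at 307 and 408 versus 429.6 and 615. For MCL1 the groups did not overlap (log2 fold change 0.55, SE 0.45, edgeR test, adjusted p = 0.682). FOS and JUNB, early response genes named after their values were seen, were likewise highest in WT replicate 2 and leptin overexpression replicate 1: FOS was at 22.1 and 220 versus 613 and 19.8 CPM, and JUNB at 45.2 and 109 versus 148 and 46.2.

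**Figure D5:**
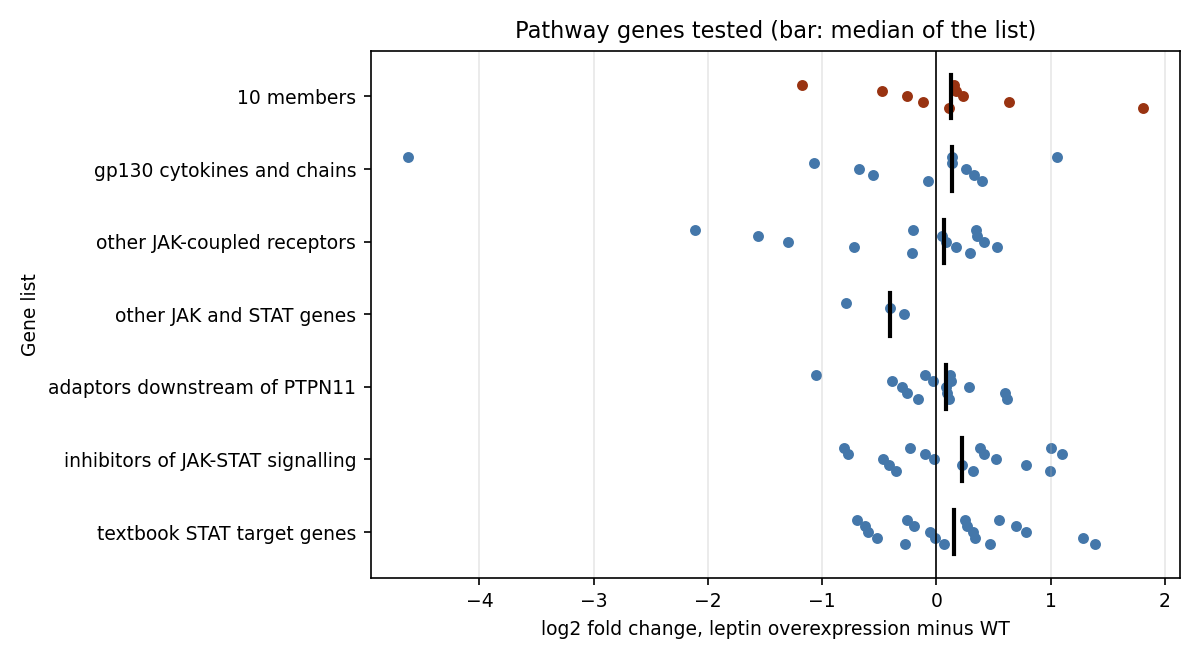
Each point is the log2 fold change of 1 tested gene, by list, and black bars are list medians. The medians of the 6 lists run from -0.41 to 0.23; the point farthest left is CSF3R, at -4.63.

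The deposited annotation places 166 rows in the KEGG Jak-STAT pathway, the 10 genes among them. Of the other 156 rows, 95 were tested and 0 passed. Their values were above 0 in 40 and below 0 in 55, with a median log2 fold change of -0.16. Groups did not overlap in 16 of the 95 in the higher direction and in 29 in the lower, beside 22.2% and 22.9% of all tested genes.

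The genes nearest to IL6ST in pattern over the 4 libraries, by Euclidean distance between centred log2 CPM among 10059 candidates, were CCDC126 (0.167), TNIK (0.218) and CFLAR (0.241). CCDC126 was at 9.44 and 19.2 CPM in WT versus 24 and 68.6 in leptin overexpression, TNIK at 11.3 and 18.6 versus 25.1 and 77.3, and CFLAR, an inhibitor of caspase-8, at 35.3 and 57 versus 79.4 and 239. Those nearest to IL6R were CRYL1 (0.083), IL11RA (0.097) and ARHGAP4 (0.124). With 4 libraries many genes share a pattern.

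The order of IL6ST, lowest in WT replicate 1 and highest in leptin overexpression replicate 2, was also that of other measures of these libraries. The mitochondrial genome gave 6.89% and 12.9% of counts in WT versus 15.1% and 16.4% in leptin overexpression, and STAR was at 7022 and 15164 versus 16546 and 23771 CPM. STAR made up most of the summed theca markers (7818 and 17300 versus 17900 and 24630 CPM), and the list as a whole did not share that order: 3 of its 5 genes had values below 0 and its median log2 fold change was -0.22, with CYP17A1, an enzyme of androgen synthesis, at 157 and 1701 versus 836 and 337 CPM. Luteal markers other than STAR differed in order as well. CYP11A1 was at 3822 and 12182 versus 9244 and 7631 CPM, and SCARB1 at 2571 and 6252 versus 6320 and 4869. Those genes and PTGFR were not highest in leptin overexpression replicate 2, whereas LHCGR was. The part of the mitochondrial share and of STAR-expressing cells in the IL6ST values was not tested. Leptin overexpression replicate 2 was the highest or lowest library for 6 of the 10 genes, beside 70.3% of tested genes, and WT replicate 1 for 7, beside 56.8%.

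By FPKM, with no TMM factors, 6 of the 10 genes had both leptin overexpression values below both WT values: IL6R, JAK1, TYK2, STAT3, STAT5B and STAT6. Of all tested genes 39.7% did so, and 6.85% lay wholly above. IL6ST was the only one of the 10 wholly above, at 17.9 and 26.8 FPKM in WT versus 30 and 87.3 in leptin overexpression. STAT3 missed overlap by little on this scale, at 66.3 in both WT replicate 1 and leptin overexpression replicate 1.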

How the data were processed

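The authors deposited 2 measures per gene, per the file headers: expected counts, which are estimated and unscaled, and FPKM values, which are divided by transcript length and depth. The submitters' processing notes list RSEM, StringTie 1.3.1, HISAT2, Bowtie2 2.2.8, fastp 0.18.0, edgeR 3.32.0 and DESeq2 without saying which did what. Genome build and strand setting were not given in the sources used here; overlapping genes may exchange reads. The control columns were taken as WT by their replicate number. Symbols came from the table for 15153 rows and from a table of gene names for 664.

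Counts were rounded, filtered with filterByExpr (8372 genes removed) and scaled with TMM. Genotypes were compared by edgeR 4.0.16 in R 4.3.3 (robust quasi-likelihood test, no other covariate, 2 residual degrees of freedom), which was tested on simulated data, as were limma 3.58.1 and DESeq2 1.42.0. Adjustment was by Benjamini-Hochberg over all tested genes. SE was obtained from the log2 fold change and the F statistic. A count of 0 allows up to 3 counts, or 0.136 to 0.224 CPM, for counting error only.

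Members and lists were chosen with earlier results of these data known. Some listed genes are not reported here and were left out of the list counts. The rule named the 10 genes, LEP, LEPR, the 3 most abundant genes of each pathway list, and the 3 genes nearest in log2 CPM (prior count 2, mean of at least 5 CPM) to the 2 members of widest range. Tissue markers were also listed, and other genes were named after their values were seen. Alternatives covered scaling, filters, tools, log2(FPKM + 1) and log2(FPKM + 0.1), a replicate block, and omission of single libraries; library totals only was chosen after seeing the data.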

Additional observations from a re-analysis of the deposited data

How the results depend on the processing

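None of the 10 genes passed in any alternative except IL6ST without WT replicate 2; leaving out 1 library gave 0 to 1 of them called. IL6ST, JAK2, IL6R, JAK1, TYK2 and STAT6 kept their sign in all 15 alternatives. STAT3 was -0.286 with log2(FPKM + 1), with or without the filter, -0.29 with log2(FPKM + 0.1), -0.278 with library totals only, and -0.14 to 0.353 with a library left out, below 0 without WT replicate 1 (-0.14) and without leptin overexpression replicate 1 (-0.039). STAT5A was -0.234, -0.234, -0.252 and -0.24 in the first 4 of these, STAT5B -0.246, -0.246, -0.257 and -0.231, and PTPN11 -0.2, -0.2, -0.211 and -0.237. With a library left out, STAT5B ran from -0.083 (without WT replicate 1) to 0.39, PTPN11 from -0.104 (without leptin overexpression replicate 2) to 0.536, and LEPR from -0.541 (without WT replicate 1) to 2.783. Values by library totals or FPKM lack the TMM factors; the cause of the other reversals was not tested.

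Over all genes, 4 passed, against 11 with upper-quartile factors, 252 with no filter, 319 with DESeq2, 1 with limma-voom, 464 with log2(FPKM + 1), 487 with log2(FPKM + 0.1), 2 with log2(FPKM + 1) and no filter, 551 with library totals only, and 0 to 681 with a library left out. Of the joined pathway lists, 0 of 78 passed, against 1 with no filter (IL2RG), 2 with DESeq2, with log2(FPKM + 1) and with log2(FPKM + 0.1) (CSF3R and IL2RG in each), 4 with library totals only, all lower, and 0 to 4 with a library left out, the 4 (CSF3R, IL2RG, LEPR and SOCS3) without WT replicate 2. The cause was not tested.

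With the replicate number as a block, 23 genes passed, and 0 of the 10 genes and 0 pathway genes. Deviations of same-numbered libraries correlated at -0.0995 across genes. With 2 libraries per group, crossed numbers must give the same value with the opposite sign (0.0995). This check therefore cannot show whether same-numbered samples share anything beyond the number, and the labels do not describe a pairing.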

Other observations

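The STAT coactivators and growth kinases of the KEGG Jak-STAT rows, chosen after their values were seen, were lowest in leptin overexpression replicate 2. EP300, an acetyltransferase that binds STAT proteins, was at 88.6 and 70.8 CPM in WT versus 51.5 and 19.5 under leptin overexpression (log2 fold change -1.17, SE 0.48, edgeR test, adjusted p = 0.519). Its relative CREBBP was at 60.7 and 49.5 versus 43.3 and 18.8 CPM, and MTOR, the growth kinase, at 87.2 and 68.6 versus 68.5 and 30.3. AKT1, a kinase of insulin and growth factor signalling, was at 133 and 142 versus 116 and 82.7 CPM. None passed the test. In the same library STAM2, which sorts receptors for degradation, was highest, at 20.3 and 16.4 versus 18.9 and 47.1 CPM.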
